A study of Mus musculus with 6 samples.

Results

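The 8 genes described here encode the isoforms of cardiac myosin and troponin I that tell atrial from ventricular muscle, and fetal from mature muscle. They are the heavy chains Myh6 and Myh7, the regulatory light chains Myl7 and Myl2, the essential light chains Myl4 and Myl3, and the troponin I subunits Tnni3 and Tnni1. The rule for membership is a list of names with no threshold on a measured value, and all 8 are among the 18810 genes of the deposited table. The tissue was the atrioventricular canal region of mouse hearts at embryonic day (E) 15.5 on the C57BL/6 strain, in 3 Scx-/- and 3 Scx+/+ littermate embryos. Scx encodes Scleraxis, a basic helix-loop-helix transcription factor, and the Scx-/- embryos lack it in all cells. The dissected pieces held the mitral, tricuspid and aortic valves and were cut with the aim of carrying little myocardium. Heart muscle RNA was nevertheless plentiful, the mean level of Myl2 ranking 25th among the 18810 genes. Each library is one bulk RNA sample, in which fewer cardiomyocytes and less RNA per cardiomyocyte cannot be told apart.

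In a sarcomere, the contractile unit of muscle, myosin heavy chains form the motor, and each heavy chain carries a regulatory and an essential light chain on its neck. Troponin I holds the thin filament inactive until calcium binds troponin C. Cardiac muscle draws each of these parts from a pair of genes. Myl7 and Myl4 are the atrial light chains of the mature heart, Myl2 and Myl3 the ventricular ones. Myh7 is the main heavy chain of the fetal mouse ventricle and is replaced there by Myh6 around birth, while Tnni1, the slow skeletal form, is the fetal troponin I that gives way to the cardiac form Tnni3. Myl4 is also made by the fetal ventricle.

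Levels are given as RPKM, the reads of a gene divided by the length of its annotated exons and by the depth of the library. Library depth was 46432236 to 68564705 reads, and a member was covered by 10586 to 1455701 reads in a library, so counting error on a single value was 0.97% at most. Summed over 18810 genes, the RPKM of Scx+/+ replicate 2 came to 2295481, against 820019 to 1240390 in the other 5 libraries. Deviations from the genotype mean were most alike in Scx-/- replicate 3 and Scx+/+ replicate 2 (correlation across genes 0.32, a description, since genes are not independent replicates). Both libraries recur below. Scx itself stood at 33.6, 18.6 and 82.9 RPKM in Scx-/- and at 29.5, 58.3 and 26.0 RPKM in Scx+/+, values being listed here and below for replicates 1, 2 and 3 in that order. A value summed over all exons of Scx does not resolve the deleted part of the gene, so it does not check the genotypes. They were taken from the labels, and the study's own assay of exon 1 of Scx was not analysed here.

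Myh6 and Myh7, the alpha and beta cardiac myosin heavy chains, lie one after the other on the minus strand (mm9, chr14:55560758-55585764 and chr14:55589525-55613471). They are the one pair with exact 50-base windows in common, so that a read of that length could fit both. Their coding sequences were identical at 91.7% of 5803 aligned bases, and 22.8% of the 50-base windows of the Myh6 transcript occurred unchanged in a Myh7 transcript. No 50-base window was shared within the other 3 pairs, whose coding sequences were 64.0% (Myl7 and Myl2), 78.1% (Myl4 and Myl3) and 68.5% (Tnni3 and Tnni1) identical. Other annotated genes overlap some members in the genome, for example 6030429G01Rik on the strand of Tnni3, and their part in the reads was not tested. The longest stretch common to both heavy chains ran over 245 bases of the coding sequence and crossed from exon 30 to exon 31 of Myh6 (chr14:55567164-55567562) and from exon 32 to exon 33 of Myh7 (chr14:55593784-55594184). It is shown because a read from within it fits both genes equally, and how such reads were counted is not given in the sources used here. Capitals mark the common stretch, lower case the bases beside it, and only its beginning is repeated for Myh7.
Myh6: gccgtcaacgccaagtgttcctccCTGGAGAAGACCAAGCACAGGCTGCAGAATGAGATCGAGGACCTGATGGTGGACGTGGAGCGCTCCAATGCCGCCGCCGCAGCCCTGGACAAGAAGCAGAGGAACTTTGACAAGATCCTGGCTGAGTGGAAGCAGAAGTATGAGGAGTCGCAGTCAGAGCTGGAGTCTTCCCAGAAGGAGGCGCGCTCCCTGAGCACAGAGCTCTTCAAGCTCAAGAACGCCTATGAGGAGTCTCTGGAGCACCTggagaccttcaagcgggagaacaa
Myh7: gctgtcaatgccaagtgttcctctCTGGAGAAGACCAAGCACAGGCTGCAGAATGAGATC

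Myh6 stood at 970, 900 and 1556 RPKM in Scx-/- and at 1147, 2219 and 999 RPKM in Scx+/+. The highest value of each genotype was in Scx-/- replicate 3 and Scx+/+ replicate 2, and the other 4 libraries lay close together. Its log2 fold change, Scx-/- against Scx+/+, was -0.30 (SE 0.38, 95% confidence interval -1.16 to 0.56, adjusted p = 0.967, limma with Benjamini-Hochberg adjustment). Myh7 stood at 2313, 1923 and 2148 RPKM in Scx-/- and at 2824, 2826 and 2380 RPKM in Scx+/+. It was the one member whose genotypes did not overlap, all 3 Scx-/- libraries being lower. Over all genes tested, 2.31% were lower in Scx-/- without overlap. The log2 fold change of Myh7 was -0.33 (SE 0.31, interval -1.04 to 0.37, adjusted p = 0.967, limma). Myh7 varied least of the 8 within a genotype, with a standard deviation (SD) of 0.14 on the log2 scale. One-way analysis of variance, which uses the spread of a gene alone where limma draws on genes of like level, gave Myh7 an unadjusted p of 0.0431 on log2 values, and 0.659 was the smallest adjusted p of Myh7 in any alternative.

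Myl2, the ventricular regulatory light chain (mm9, chr5:122550960-122563481), was the most abundant member. It stood at 8364, 7247 and 11262 RPKM in Scx-/- and at 6299, 11634 and 5910 RPKM in Scx+/+, and its mean ranked 25th in the table. Scx-/- replicate 3 and Scx+/+ replicate 2 were again the high libraries, and the genotypes overlapped. Myl7, its atrial counterpart (chr11:5796640-5798785), stood at 362, 537 and 355 RPKM in Scx-/- and at 299, 483 and 406 RPKM in Scx+/+. Here Scx-/- replicate 2 was highest and Scx-/- replicate 3 was among the low libraries. The log2 fold change was 0.22 for Myl2 (SE 0.53, interval -0.99 to 1.43) and 0.08 for Myl7 (SE 0.26, interval -0.52 to 0.67), with adjusted p = 0.984 and 0.989 (limma).

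Myl3, the ventricular essential light chain that is also used by slow skeletal muscle (mm9, chr9:110666150-110672308), stood at 2335, 1548 and 2321 RPKM in Scx-/- and at 1722, 3261 and 1619 RPKM in Scx+/+. Its highest library was Scx+/+ replicate 2, and the Scx-/- libraries lay inside the Scx+/+ range apart from replicate 2. Myl4, the atrial and fetal essential light chain (chr11:104411977-104457067), stood at 549, 442 and 305 RPKM in Scx-/- and at 379, 428 and 432 RPKM in Scx+/+. Both the highest and the lowest Myl4 values were in Scx-/- libraries, and the Scx+/+ libraries were close to each other (413 ± 29.1 RPKM, SD, n = 3). Log2 fold changes were -0.04 for Myl3 (SE 0.38, interval -0.91 to 0.83) and 0.03 for Myl4 (SE 0.25, interval -0.54 to 0.60), both at adjusted p = 0.996 (limma).

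Tnni3, cardiac troponin I (mm9, chr7:4469907-4475831), stood at 761, 563 and 1110 RPKM in Scx-/- and at 559, 1321 and 521 RPKM in Scx+/+. It had the widest spread of the 8, its highest library being 2.53 times its lowest. Tnni1, the fetal form (chr1:137679642-137707566), stood at 738, 480 and 644 RPKM in Scx-/- and at 545, 706 and 492 RPKM in Scx+/+, a ratio of 1.54 between the highest and lowest library. The genotypes overlapped for both genes. Log2 fold changes were 0.10 for Tnni3 (SE 0.41, interval -0.82 to 1.02, adjusted p = 0.992) and 0.09 for Tnni1 (SE 0.26, interval -0.49 to 0.67, adjusted p = 0.987, limma).

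**Figure D1:**
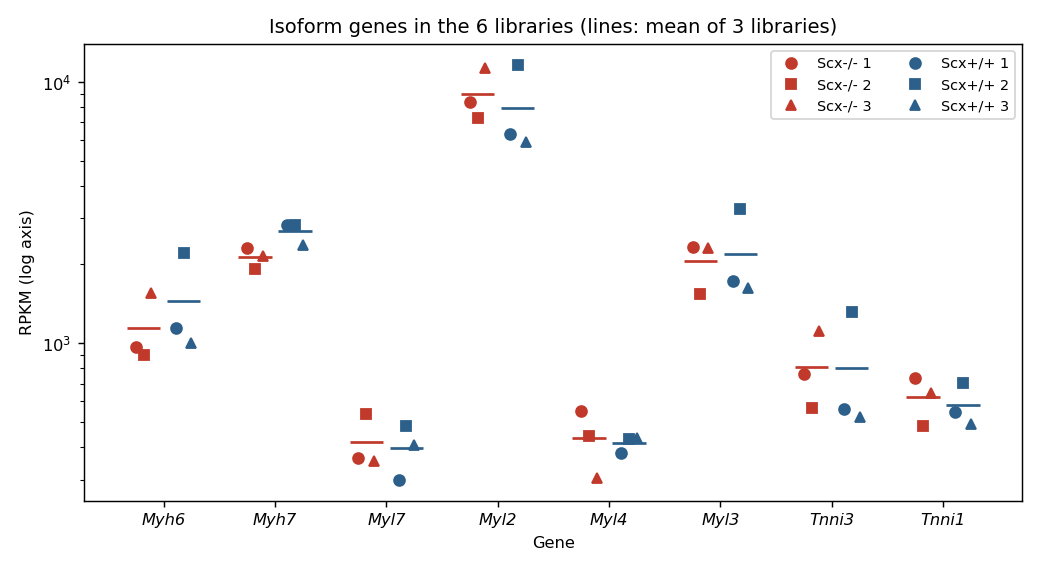
RPKM of the 8 isoform genes on a log axis in Scx-/- (red) and Scx+/+ (blue) libraries, with replicates 1, 2 and 3 as circle, square and triangle and a line at each mean of 3 libraries. The genotypes overlap for every gene but Myh7, whose Scx-/- libraries (1923 to 2313 RPKM) lie below its Scx+/+ libraries (2380 to 2826 RPKM).

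With limma, none of the 8 genes was called at an unadjusted p below 0.05 (one-way analysis of variance called 1, Myh7), where 3.89% of all genes tested were called (731 of 18810, 531 higher and 200 lower in Scx-/-). At an adjusted p below 0.05, limma called 0 genes in the whole table, the smallest adjusted p being 0.173. The median log2 fold change of the members was 0.05 and that of all genes 0.105. Above that general shift lay Myl2 alone. With the median of every library set to 0, Myl2 stood at 0.11, the small positive values of Myl7, Myl4, Tnni1 and Tnni3 became -0.03, -0.08, -0.02 and -0.01, and Myh6, Myh7 and Myl3 stood at -0.41, -0.44 and -0.15. The confidence interval was narrowest for Myl4 (-0.54 to 0.60) and widest for Myl2 (-0.99 to 1.43), so the precision of the comparison differed between the genes. With Scx-/- replicate 3 and Scx+/+ replicate 2 both left out, still none of the 8 was called, while 1587 genes of the table were.

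**Figure D2:**
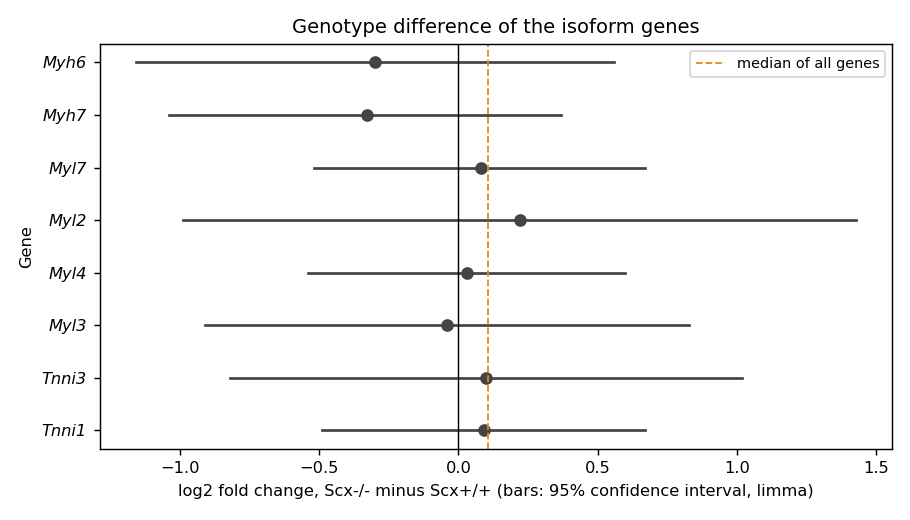
Log2 fold change of each isoform gene, Scx-/- minus Scx+/+, on log2(RPKM + 0.1), with the 95% confidence interval from limma (3 libraries a genotype). All 8 intervals include both 0 (solid line) and the median of all genes, 0.105 (dashed line).

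RPKM allows levels to be set side by side between genes. Over the 6 libraries Myl2 (8453 ± 2473 RPKM, SD, n = 6) lay above Myh7 (2402 ± 364) and Myl3 (2134 ± 652), followed by Myh6 (1298 ± 508), Tnni3 (806 ± 335), Tnni1 (601 ± 111), Myl4 (423 ± 80.3) and Myl7 (407 ± 88.4). Myl2 exceeded Myh7 in all 6 libraries with no overlap of ranges. Myh7 and Myl3 did not differ beyond their spread, nor did Myl4 and Myl7, each pair changing order in 3 of 6 libraries. The other neighbours kept their order in all 6 libraries although their ranges overlapped.

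This order depends on the length used as the divisor. The exons that Ensembl annotates for a gene, merged over all its transcripts, were much longer than the transcript with the longest coding sequence in some members. The merged exons came to 4637 bases against 943 in Myl4, to 1950 against 729 in Myl2 and to 1928 against 912 in Tnni3, but were the same 590 bases in Myl7. Per kilobase of that single transcript, an alternative added after seeing the data, Myl2 came to 22610, Myh7 to 3311, Myl3 to 2956, Myl4 to 2078, Tnni3 to 1704, Myh6 to 1369, Tnni1 to 892 and Myl7 to 407. Myl4 thereby moved from seventh to the fourth place, while Myl2 remained the highest and Myl7 the lowest. Which transcripts were made in this tissue cannot be read from values per gene, so the level of Myl4 against the other members is uncertain by up to the 4.92-fold between both lengths. Comparisons of one gene between libraries are not touched by this.

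**Figure D3:**
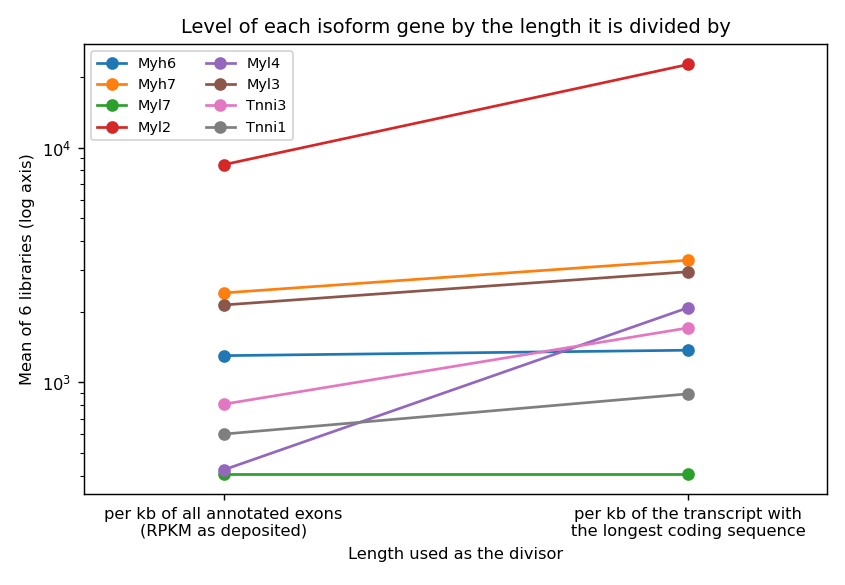
Mean of 6 libraries for each isoform gene on a log axis, per kilobase of all annotated exons (left, RPKM as deposited) and per kilobase of the transcript with the longest coding sequence (right). Myl4 rises from 423 to 2078 and Myl2 from 8453 to 22610, while Myl7 stays at 407.

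Within a library, the share of one isoform in its pair does not depend on depth or scaling. Myh6 made up 29.6%, 31.9% and 42.0% of heavy chain RPKM in Scx-/- and 28.9%, 44.0% and 29.6% in Scx+/+. Tnni3 made up 50.8%, 54.0% and 63.3% of troponin I RPKM in Scx-/- and 50.6%, 65.2% and 51.4% in Scx+/+. Both shares were high in the same 2 libraries, one of each genotype, and nearly equal in the other 4. The shares of the atrial light chains were lowest in those 2 libraries, less clearly for Myl7. Myl7 made up 4.15%, 6.90% and 3.06% of regulatory light chain RPKM in Scx-/- and 4.53%, 3.98% and 6.43% in Scx+/+. Its 3.98% in Scx+/+ replicate 2 lay close to the 4.15% in Scx-/- replicate 1. Myl4 made up 19.0%, 22.2% and 11.6% of essential light chain RPKM in Scx-/- and 18.1%, 11.6% and 21.1% in Scx+/+. The Myl4 share was lowest in Scx-/- replicate 3 and Scx+/+ replicate 2, the libraries in which Myh6 and Tnni3 had their highest shares.

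Between genotypes these shares were alike in their means. The log2 ratio within the pair differed, Scx-/- minus Scx+/+, by 0.03 for Myh6 over Myh7 (SE 0.39), by -0.14 for Myl7 over Myl2 (SE 0.42), by 0.06 for Myl4 over Myl3 (SE 0.46) and by 0.01 for Tnni3 over Tnni1 (SE 0.36). Two-sided exact permutation tests over the 6 libraries gave p = 0.9, 0.8, 0.7 and 0.9, each 0.9 after adjustment over the 4 pairs, in a design that cannot go below 0.1. Each of the 4 differences changed sign when single libraries were left out, for example to -0.21 (Myh6 over Myh7), 0.14 (Myl7 over Myl2) and -0.20 (Tnni3 over Tnni1) without Scx-/- replicate 3, and to -0.23 (Myl4 over Myl3) without Scx+/+ replicate 2. Per kilobase of the longest coding transcript the mean share of Myl4 was 42.0% in place of 17.3%, that of Myl7 1.87% in place of 4.84%, that of Myh6 28.6% in place of 34.3% and that of Tnni3 64.2% in place of 55.9%. By either length, Myh7 exceeded Myh6 and Myl2 exceeded Myl7 in all 6 libraries, and Tnni3 exceeded Tnni1.

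**Figure D4:**
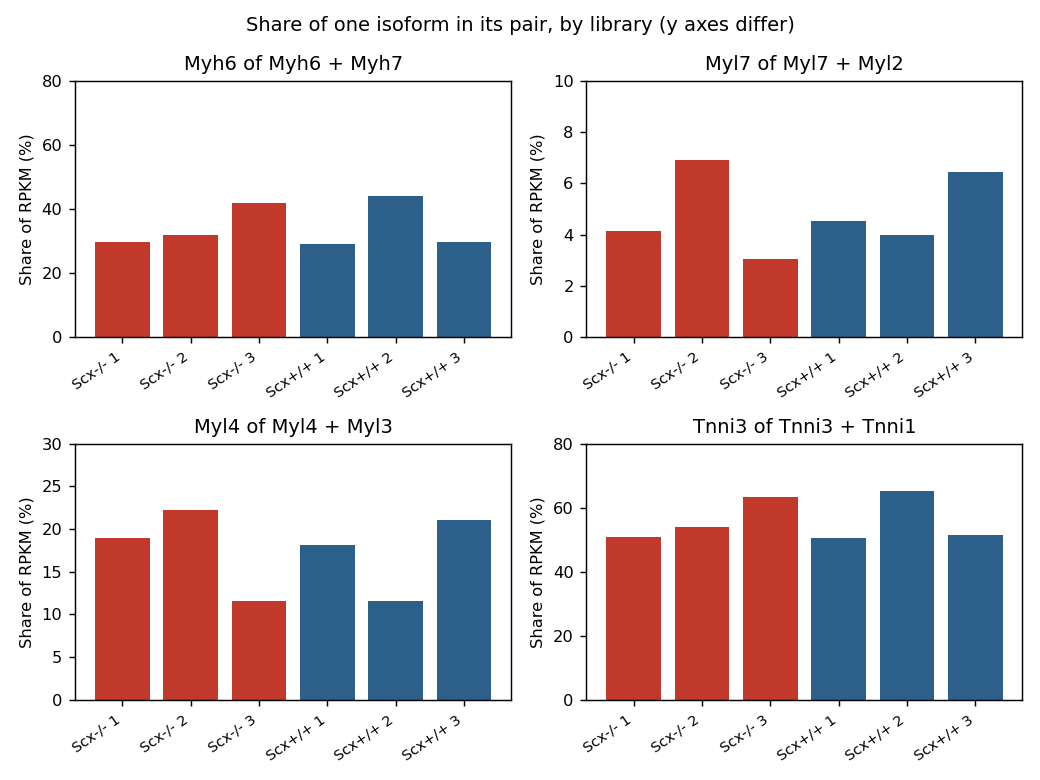
Share of the first isoform in the RPKM of its pair (percent, bars from 0, one bar per library), Scx-/- red and Scx+/+ blue. Myh6 and Tnni3 take their highest shares in Scx-/- replicate 3 (42.0% and 63.3%) and Scx+/+ replicate 2 (44.0% and 65.2%), the libraries with the lowest Myl4 share (11.6% in both).

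Over the 6 libraries the members did not all vary together. Their median log2 range over the 6 libraries was 0.91, against 0.72 for the 991 genes whose mean reached 100 RPKM. The log2 level of each gene, less its mean over the 6 libraries, served to compare profiles, with the root mean square difference as the measure of likeness. Myl2 and Tnni3 were most alike (0.17), followed by Myl2 and Myl3 and by Myl3 and Tnni1 (0.19 each). Least alike were Myl4 and Tnni3 (0.64). Myh6, Tnni3, Myl2 and Myl3 all stood above their mean in Scx-/- replicate 3 and Scx+/+ replicate 2, by 0.17 to 0.85 on the log2 scale. Myl4 and Myl7 stood at -0.45 and -0.17 in Scx-/- replicate 3 and at 0.04 and 0.27 in Scx+/+ replicate 2.

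**Figure D5:**
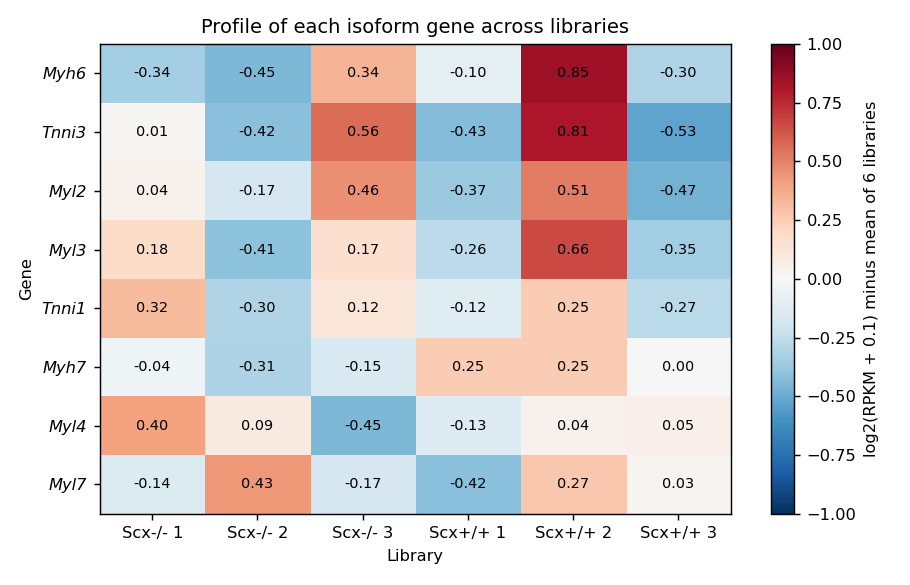
Log2(RPKM + 0.1) of each isoform gene less its mean over the 6 libraries, red above and blue below the mean. Myh6, Tnni3, Myl2 and Myl3 are red in Scx-/- replicate 3 and Scx+/+ replicate 2 (0.17 to 0.85), where Myl4 stands at -0.45 and 0.04.

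The most abundant partners in the sarcomere had the highest value of each genotype in the same 2 libraries. Cardiac troponin T (Tnnt2) stood at 5259, 4116 and 6694 RPKM in Scx-/- and at 4167, 6056 and 3539 RPKM in Scx+/+, again high in Scx-/- replicate 3 and Scx+/+ replicate 2. Cardiac actin (Actc1) and troponin C (Tnnc1) had means of 2668 and 2158 RPKM, Tnnc1 being listed under 2 identifiers with nearly the same values. Actc1 was nearly as high in Scx-/- replicate 1 (2978 RPKM) as in Scx-/- replicate 3 (3016 RPKM). The RPKM sum over 20 such partners, with Tnnc1 counted once, ran from 12280 to 17899 in Scx-/- and from 10671 to 18557 in Scx+/+, beside 13640 to 19701 and 12758 to 22878 for the 8 isoform genes. Titin (Ttn), whose transcript is by far the longest of the list, went the other way, with its lowest level, 92.4 RPKM, in Scx+/+ replicate 2. In that library genes with under 1 kb of exons stood 0.26 above their mean (median of 1620 genes, log2) and genes over 4 kb stood 0.12 below theirs, whereas Scx-/- replicate 3 stood at 0.08 and 0.00. The part of transcript length in the levels of Scx+/+ replicate 2 was not tested. After correction of each library for the length and GC content of the exons, an alternative added after seeing the data, none of the 8 isoform genes was called.

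Of the 21 identifiers of the sarcomere partners, 1 was called lower and 0 higher in Scx-/- at an unadjusted p below 0.05, with a median log2 fold change of 0.09. Over all genes tested, 1.06% were called lower and 2.82% higher. The called partner was Ldb3, a Z-disc protein, at 37.6, 30.4 and 33.6 RPKM in Scx-/- and 44.1, 42.4 and 45.8 RPKM in Scx+/+ (log2 fold change -0.38, SE 0.16, adjusted p = 0.967, limma). Of 18 further myosin and troponin isoforms in the table, 1 was called higher and 0 lower (median 0.13), again beside 2.82% called higher over all genes. The fast skeletal regulatory light chain Mylpf stood at 9.16, 4.64 and 7.74 RPKM in Scx-/- and at 3.78, 4.72 and 3.61 RPKM in Scx+/+ (log2 fold change 0.77, SE 0.28, adjusted p = 0.967, limma), with overlap in replicate 2. The light chains of smooth muscle and non-muscle cells, Myl9 and Myl6, were the most abundant of that list (means of 545 and 394 RPKM), and slow skeletal troponin T, Tnnt1, had a mean of 37.1 RPKM. Of 12 markers of skeletal muscle 7 were in the table. Mylpf was again the 1 called, the list's highest gene Ckm (mean of 1593 RPKM) is also the creatine kinase of heart muscle, and the myogenic factors Myod1, Myog, Myf5 and Myf6 were not among the genes analysed here.

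Markers of the heart chambers gave 0 calls among 8 atrial and 0 among 8 ventricular genes, beside 3.89% of all genes called in either direction. The median log2 fold change was 0.06 in both lists. In each list 1 gene was lower and 0 were higher without overlap, beside 2.31% and 7.19% of all genes. Nppa, the atrial natriuretic peptide, which the fetal ventricle also makes, stood at 982, 724 and 453 RPKM in Scx-/- and at 564, 1440 and 407 RPKM in Scx+/+. Its highest library was Scx+/+ replicate 2, and Scx-/- replicate 3 was low, so the pair of libraries that shared high Myh6 and Tnni3 parted here. Sarcolipin (Sln), an atrial regulator of the calcium pump, stood at 11.9, 19.4 and 10.1 RPKM in Scx-/- and at 5.27, 43.5 and 8.61 RPKM in Scx+/+, likewise highest in Scx+/+ replicate 2. Bmp10, an atrial and trabecular growth factor, had a mean of 12.9 RPKM. Phospholamban (Pln), the regulator of the calcium pump that is richer in ventricle, stood at 1048, 898 and 1296 RPKM in Scx-/- and at 972, 1176 and 788 RPKM in Scx+/+. Fhl2 and Hey2 had means of 173 and 42.4 RPKM. Summed over each list, atrial markers ran from 485 to 1027 RPKM in Scx-/- and from 439 to 1519 RPKM in Scx+/+, and ventricular markers from 1075 to 1650 and from 957 to 1451 RPKM.

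Of 18 listed genes that regulate these isoforms, 16 were in the table under 17 identifiers, such as the thyroid hormone receptor Thra and cardiac transcription factors. Among the 17 identifiers, 2 were called lower and 0 higher (median log2 fold change -0.01), beside 1.06% called lower over all genes. Without overlap, 5 of the 17 were lower, beside 2.31% of all genes, and 0 were higher. Both called identifiers were Tead1, a factor that binds MCAT elements of muscle genes. One Tead1 identifier stood at 6.69, 6.85 and 5.32 RPKM in Scx-/- and at 10.6, 7.68 and 13.6 RPKM in Scx+/+ (log2 fold change -0.72, SE 0.24, adjusted p = 0.967, limma), without overlap. The other stood at 5.22, 4.6 and 3.93 RPKM in Scx-/- and at 8.12, 5.34 and 10.2 RPKM in Scx+/+ (-0.73, SE 0.27). Both identifiers carry one symbol and may count the same reads, so they are not 2 independent observations. The other 3 without overlap, Myocd, Mef2d and Nr2f2, had log2 fold changes of -0.44, -0.46 and -0.52 (SE 0.21, 0.26 and 0.30) and were not called, and they are named because their values were seen. The most abundant genes of the list were Mef2a, Mef2c and Srf, with means of 43.4, 18.2 and 9.56 RPKM and log2 fold changes of 0.00, 0.06 and 0.04.

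Promoters bear on Scx and Tead1 through the letters their proteins are known to prefer, the E-box (CANNTG) for basic helix-loop-helix factors and the MCAT element (CATTCC) for TEAD factors. RefSeq lists 11 start sites for the 8 genes (GRCm38.p6), all matched by symbol. In the 250 bases before the start, on either strand, an E-box was found at 10 of the 11 sites and at 66.2% of all 32851 promoters, and an MCAT element at 4 of 11 and at 12.6% of all. The windows of both Tnni1 sites overlap and share E-boxes, as do those of both Myh7 sites, so the 11 are not independent. The TATA letters TATAAA were at 1 of 11 sites (12.4% of all), GATA at 7 of 11 (53.6%), a CArG box at 2 of 11 (1.47%) and a MEF2 site at 0 of 11 (2.92%). The 4 promoters with an MCAT element belong to Myh6, Myh7, Myl3 and Myl7, from both sides of the atrial and ventricular division. They are shown 5' to 3' on the strand of the gene, ending at the base before the start site, with E-boxes and MCAT elements (CATTCC, or GGAATG where it lies on the other strand) in capitals. These windows lie at chr14:54966608-54966857 (minus strand), chr14:54994627-54994876 (minus), chr9:110763428-110763677 (plus) and chr11:5898783-5899032 (minus). Myh7 has a further listed start, not shown, whose window held 2 E-boxes and no MCAT element.
Myh6: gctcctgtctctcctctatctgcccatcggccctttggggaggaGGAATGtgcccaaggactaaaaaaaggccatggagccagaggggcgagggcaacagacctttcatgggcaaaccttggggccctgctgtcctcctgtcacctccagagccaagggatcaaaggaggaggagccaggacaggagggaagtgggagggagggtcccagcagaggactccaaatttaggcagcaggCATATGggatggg
Myh7: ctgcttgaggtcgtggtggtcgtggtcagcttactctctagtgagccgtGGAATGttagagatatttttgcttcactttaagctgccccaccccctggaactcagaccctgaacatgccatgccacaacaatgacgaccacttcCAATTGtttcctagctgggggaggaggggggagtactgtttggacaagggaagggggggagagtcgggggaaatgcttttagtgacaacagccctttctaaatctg
Myl3: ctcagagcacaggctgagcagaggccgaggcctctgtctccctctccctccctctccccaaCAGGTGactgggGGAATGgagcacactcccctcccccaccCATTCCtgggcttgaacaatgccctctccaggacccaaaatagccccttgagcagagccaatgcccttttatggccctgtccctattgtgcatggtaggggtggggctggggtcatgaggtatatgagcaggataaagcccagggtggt
Myl7: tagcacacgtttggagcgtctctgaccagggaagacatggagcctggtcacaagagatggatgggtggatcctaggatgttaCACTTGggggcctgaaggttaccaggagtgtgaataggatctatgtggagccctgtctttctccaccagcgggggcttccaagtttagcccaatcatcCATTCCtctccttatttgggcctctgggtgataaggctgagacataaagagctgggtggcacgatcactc

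The MCAT element lay 206 bases before the start in Myh6 and 201 bases before the start shown in Myh7, both on the other strand. It lay at 177 and 149 bases in Myl3 and at 70 bases in Myl7. The E-box lay 13 bases before the start in Myh6, with the letters CATATG, at 106 bases in Myh7 (CAATTG), at 189 bases in Myl3 (CAGGTG) and at 168 bases in Myl7 (CACTTG). These matches describe letters, and no binding was measured. Of these 4 genes, Myh7 and Myh6 had the lowest log2 fold changes of all members (-0.33 and -0.30), and Myl3 and Myl7 stood at -0.04 and 0.08. None of the 4 was called by limma, and a relation of the motifs to these values was not tested.

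Markers of other cells in the tissue were also measured. The 10 markers of valve mesenchyme summed to 454 to 596 RPKM in Scx-/- and to 433 to 476 RPKM in Scx+/+. They were led by Postn, Col3a1 and Tbx20 with means of 254, 125 and 50 RPKM. Postn, the largest part of the sum, stood at 216, 296 and 387 RPKM in Scx-/- and at 195, 271 and 161 RPKM in Scx+/+. The median log2 fold change of the 10 was -0.09, with 3 of them above 0. Called lower was 1 of the 10, beside 1.06% of all genes. It was Snai2, a factor of the endothelial to mesenchymal change (1.78, 1.64 and 0.865 RPKM against 2.99, 2.0 and 2.46 RPKM, log2 fold change -0.80, SE 0.35, adjusted p = 0.967, limma). Of 6 epicardial markers 2 were called higher, Upk1b (log2 fold change 0.61, SE 0.25) and the retinoic acid enzyme Aldh1a2 (0.60, SE 0.25). Both were without overlap, as were 7.19% of all genes in the higher direction, while 2.82% of all genes were called higher. Tbx18 and Upk3b had means of 7.67 and 6.43 RPKM. The 6 macrophage markers had a median log2 fold change of 0.03, with 3 of them above 0. Called higher was 1, Cd68 (0.639, 1.54 and 0.812 RPKM against 0.358, 0.0949 and 0.476 RPKM, log2 fold change 1.48, SE 0.57), the value 0.0949 RPKM being a fill-in for low values. Lyz2, Mrc1 and Emr1 had means of 29.8, 3.80 and 1.65 RPKM and log2 fold changes of -0.08, -0.14 and 0.47. None was called of 8 endothelial markers (led by Pecam1, Tek and Kdr at 36.2, 29.3 and 21.1 RPKM), of 6 smooth muscle markers (Acta2, Tagln and Cnn1 at 416, 65.6 and 44.4 RPKM) or of 6 erythroid markers (Hba-a1, Hbb-b1 and Alas2 at 3439, 2299 and 13.2 RPKM). Over all genes 3.89% were called in either direction, so lists this short can hold no call at that share. The part of cell makeup in the levels of the isoform genes was not tested.

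Outside the 8 genes, profiles nearest to those of Myl2, Tnni3 and Myl7 were sought among 5287 genes whose mean reached 10 RPKM, by the root mean square difference over 6 libraries. Nearest to Myl2 were Sccpdh, Gm14328, Gm12231, Ndufa6 and Apoo-ps, all at 0.05, where the median candidate was at 0.36. Nearest to Tnni3 were Ifitm3 at 0.06 and Slc25a4, Prdx5, Ndufs4 and Ndufb9 at 0.07 (median 0.49). Nearest to Myl7 were Mkrn2 at 0.12, Ufd1l at 0.13 and Rpl32-ps, Gm14284 and Rps21 at 0.14 (median 0.37). Slc25a4, for example, stood at 1823, 1449 and 2722 RPKM in Scx-/- and at 1372, 3022 and 1172 RPKM in Scx+/+, high in the same 2 libraries as Tnni3. Genes close to Myl2 and Tnni3 were thus closer to them than any candidate was to Myl7, whose profile had its high values in replicate 2 of both genotypes.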

How the data were processed

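RNA of each dissected region was sequenced by the authors on an Illumina instrument (poly-A selection, strand and read length are not given in the sources used here). Per the labels and the study's methods, reads were aligned to mm9 with TopHat 1.4.1 and counted in Ensembl exons with easyRNASeq. The deposited values are RPKM, which the authors kept only where a gene reached about 50 reads in 1 or more libraries, with values of about 10 reads or fewer replaced by a common value, found as 0.0949 RPKM. Counts were not used for tests. Depth was solved from RPKM and exon length in GENCODE for mm9 (18695 of 18810 identifiers matched, and 98.49% to 98.64% of values under 1000 reads were whole within 0.1 read). That annotation is one Ensembl release older than the one the authors used.

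The main test was limma 3.58.1 (R 4.3.3) on log2(RPKM + 0.1) with an intensity trend, no covariate, over 18810 genes, 3 against 3 libraries, with Benjamini-Hochberg adjustment and intervals at 95%. Calls were made at an unadjusted p below 0.05, the threshold of the study, which used one-way ANOVA. The steps were tested on simulated data. Fold changes lie on the log2(RPKM + 0.1) scale. Isoform ratios were compared by exact permutation. Alternatives are listed with their effect in the closing section. Sequences came from GENCODE transcripts and RefSeq. Named are the 8 isoform genes, Scx, from each list the called genes and the 3 with the highest mean, and the 5 nearest profiles of Myl7, Myl2 and Tnni3. Members and lists were chosen with earlier results of these data known. The other steps used matplotlib 3.10.9, scipy 1.17.1, pandas 2.3.3, numpy 2.4.6 and Python 3.11.15.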

Additional observations from a re-analysis of the deposited data

How the results depend on the processing

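None of the 8 isoform genes was called under pseudocounts of 0.01 and 1, a mean of at least 1 RPKM, limma without a trend, quantile normalization, median centring, scaling to the sarcomere partners, removal of a length and GC trend or any omitted library (0 to 0 called). One-way ANOVA on log2 and on RPKM each called 1, Myh7. Genes of the fixed lists called were 8, against 4 with either ANOVA, 13 with quantile normalization, 5 with the replicate block and 13 without both Scx-/- replicate 3 and Scx+/+ replicate 2 (1587 genes in the whole table). Without single libraries, the lists gave 2 (without Scx+/+ replicate 1) to 18 calls (without Scx+/+ replicate 2) and all genes gave 539 to 1549. Median centring and quantile normalization made 281 of 646 and 352 of 705 calls higher, against 531 of 731. The cause of these changes was not tested.

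Log2 fold changes near 0 changed sign, none of them called. Myl4 went to -0.09 with quantile normalization, -0.08 with median centring, -0.02 when scaled to the sarcomere partners and -0.03 with the length and GC trend removed, where Tnni1 went to -0.02. Median centring gave Myl7 -0.03, Tnni1 -0.02 and Tnni3 -0.01. Myl3 went to 0.19 without both libraries. With single libraries left out, Myh6 ranged from -0.55 to 0.05, Myl3 from -0.22 to 0.28, Myl7 from -0.12 to 0.23, Myl4 from -0.17 to 0.26, Tnni1 from -0.05 to 0.26 and Tnni3 from -0.15 to 0.53.

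The isoform log2 ratios ranged from -0.21 to 0.34 (Myh6 over Myh7), -0.48 to 0.14 (Myl7 over Myl2), -0.23 to 0.39 (Myl4 over Myl3) and -0.20 to 0.29 (Tnni3 over Tnni1) with single libraries left out. Mean shares ranged from 32.4% to 35.4% (Myh6), 4.43% to 5.20% (Myl7), 16.3% to 18.4% (Myl4) and 54.0% to 56.9% (Tnni3). Per kilobase of the longest coding transcript, the shares of Myl7, Myl4 and Tnni3 were 1.87%, 42.0% and 64.2%.

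Replicate numbers did not pair the libraries. Same-numbered deviations correlated at 0.09, -0.22 and -0.19, and 2 of 3 pairs were below 0. The replicate block called 573 genes and 0 of the 8. It left each isoform ratio as it was, at p = 0.75 (exact sign-flip permutation, 3 pairs). Leaving out a library leaves 2 against 3. Limits are the 3 libraries a genotype and bulk tissue.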
